A study of Homo sapiens with 36 samples.

Results

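Ribociclib, an orally dosed drug that inhibits the cyclin-dependent kinases CDK4 and CDK6, was compared with vehicle in LNCaP cells after 24 h of exposure at 2 µM. LNCaP is an established human prostate cancer cell line of luminal type that responds to androgens. The comparison rested on 6 of the 36 RNA sequencing libraries of the series, 3 of ribociclib at 2 µM and 3 of vehicle, chosen by the agent, dose and time in their labels, and was described over all 16137 genes that could be tested. The series also held AU2-94 and atirmociclib, each at 1 and 2 µM, and a second harvest at 72 h, which made 12 groups of 3 libraries. All groups were the same cell line, treated 24 h after plating, and differed in agent, dose and time, although fewer cells were plated for the 72 h harvest. The labels also gave the vehicle libraries a dose of 2 µM, without saying what it refers to. The study described its replicates as biological, and with 1 cell line the p-values measured the spread between these cultures and not between tumours. Total RNA was sequenced, and the values were read counts per gene as normalised by the authors, here called normalised counts.

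CDK4 and CDK6 act with the D-type cyclins at the entry to the cell cycle, where they phosphorylate the retinoblastoma protein RB1 and so release the E2F transcription factors from it. E2F factors drive genes for DNA replication, nucleotide supply and histones, and a later wave, driven from promoters with CHR elements by B-MYB and FOXM1 on the MuvB complex, supplies the machinery of mitosis. The DREAM complex, which also holds MuvB, represses these genes in resting and G1 cells. Prostate cells of the luminal type also express a set of genes that androgens switch on, with KLK3 (prostate-specific antigen) and TMPRSS2 among the best known. In bulk RNA, fewer cells in a phase of the cycle and less RNA per cell cannot be told apart.

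Promoters of 4 genes that fell are shown first, because they hold close to the start site the elements through which both waves are known to be driven. UHRF1, a reader of DNA methylation at replication forks, and GINS2, a subunit of the replicative helicase, came from the G1/S and replication lists. They had the largest falls among the called members considered whose 250 bases before the start held an E2F octamer. Some members were left out of this choice by chromosome, among them CCNE2 of the G1/S list. CCNE2 fell further (log2 fold change -2.20). MKI67, which encodes the proliferation antigen Ki-67, and ESPL1, the separase that cleaves cohesin at anaphase, came from the mitotic list. These genes were chosen in the same way, with a CHR hexamer in place of the octamer. The windows run over the 250 bases before the RefSeq start in the direction of transcription, on GRCh38.p14, at chr19:4909251-4909500 (plus strand), chr16:85688955-85689204 (minus strand), chr10:128126424-128126673 (minus strand) and chr12:53268049-53268298 (plus strand), in that order. Capitals mark the E2F octamer in the UHRF1 and GINS2 promoters and the CHR hexamers in the other two.
UHRF1: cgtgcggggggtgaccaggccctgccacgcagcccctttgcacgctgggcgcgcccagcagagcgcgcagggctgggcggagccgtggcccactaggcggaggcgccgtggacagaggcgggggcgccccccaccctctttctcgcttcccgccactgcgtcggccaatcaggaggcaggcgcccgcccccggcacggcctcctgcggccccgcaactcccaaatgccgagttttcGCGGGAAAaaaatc
GINS2: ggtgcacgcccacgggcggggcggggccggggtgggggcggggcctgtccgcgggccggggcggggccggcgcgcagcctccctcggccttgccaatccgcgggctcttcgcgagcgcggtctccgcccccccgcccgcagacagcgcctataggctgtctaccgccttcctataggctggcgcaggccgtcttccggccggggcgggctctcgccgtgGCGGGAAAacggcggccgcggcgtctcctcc
MKI67: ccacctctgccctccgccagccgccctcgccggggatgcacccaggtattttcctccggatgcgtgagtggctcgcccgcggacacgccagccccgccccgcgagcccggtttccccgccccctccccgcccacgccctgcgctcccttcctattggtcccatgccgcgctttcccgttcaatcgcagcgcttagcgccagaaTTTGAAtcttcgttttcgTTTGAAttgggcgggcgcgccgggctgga
ESPL1: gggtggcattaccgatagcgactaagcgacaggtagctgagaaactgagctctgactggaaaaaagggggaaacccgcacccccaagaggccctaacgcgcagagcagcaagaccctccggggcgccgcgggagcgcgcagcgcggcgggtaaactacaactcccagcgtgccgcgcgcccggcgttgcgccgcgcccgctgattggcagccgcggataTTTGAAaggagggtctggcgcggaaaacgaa

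In these windows the octamer GCGGGAAA, the other strand of TTTCCCGC, began 14 bases before the start of UHRF1 and 31 bases before that of GINS2, and TTTGAA began 47 and 29 bases before the start of MKI67 and 31 bases before that of ESPL1. UHRF1 lay at 1801, 1744 and 1811 normalised counts with vehicle and at 490, 506 and 507 with ribociclib, and GINS2 at 644, 522 and 517 against 153, 172 and 151. Both pairs of groups stood well apart, with log2 fold changes of -1.83 (SE 0.10) and -1.81 (SE 0.15). Windows of 300 bases, from 250 before to 50 after the start, were searched on both strands for 4 E2F octamers (TTTGGCGC, TTTCCCGC, TTTGCCGC and TTTCGCGC), for the CHR hexamers TTTGAA and TTCGAA and for the CCAAT box CCAAT. None of these motifs contains another, although single matches can overlap. An E2F octamer was present in 14.5% of the 420 genes called lower that had a window, in 3.95% of the 152 called higher, in 5.31% of the 11516 tested genes with a window and in 3.33% of all 27305 windows. For the CHR hexamer the shares were 28.1%, 16.4%, 11.1% and 16.6%, and for CCAAT 49.8%, 33.6%, 37.1% and 35.7%. The octamer was found in 42.2% of 45 genes of the replication list, the CHR hexamer in 71.1% of 45 kinetochore and kinesin genes and 60.7% of 28 mitotic genes, and CCAAT in 84.3% of 51 histone genes. A match is a description of letters in a window, and no test was made of it.

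Across the transcriptome, ribociclib lowered more genes than it raised. A gene was called where the Benjamini-Hochberg adjusted p of limma, computed on log2(normalised count + 1), was at most 0.05 and the change at least 2-fold. By this rule 225 genes (1.39% of those tested) were higher and 590 (3.66%) lower, so that 72.4% of the calls were lower. On the adjusted p alone, 2703 genes (16.8%) were higher and 2452 (15.2%) lower, in near balance, and the median log2 fold change over all genes was -0.0016. The excess of lower genes thus lay in the larger changes: 49 genes rose and 158 fell by 4-fold or more, and 13 rose and 29 fell by 8-fold or more. In 214 of the 225 and 578 of the 590 called genes, the 3 ribociclib libraries lay entirely on 1 side of the 3 vehicle libraries. Over all genes tested, called or not, this held for 3732 genes upward (23.1%) and 3634 downward (22.5%).

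The calls spread over gene kinds and over levels of expression. Of 12878 protein-coding genes, 172 (1.34%) were higher and 484 (3.76%) lower, and of 3242 long non-coding genes 53 (1.63%) and 105 (3.24%). Among 4708 genes with a mean of at least 1000 normalised counts, 20 were higher and 108 lower, and among 4820 genes under 100 the numbers were 157 and 245. The median standard error of a log2 fold change was 0.0644 in the former class and 0.386 in the latter, so the same log2 change was less certain in scarce transcripts. For 12 of the higher genes all vehicle libraries, and for 16 of the lower genes all ribociclib libraries, lay at or under 3 normalised counts, which was taken as the floor below which no fold is given. The 6 libraries were alike in scale, with totals from 20675156 to 20824457 normalised counts for vehicle and from 21540937 to 21643592 for ribociclib. Mitochondrially encoded genes took 6.45% to 6.60% of the total with vehicle and 7.0% to 7.21% with ribociclib.

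The genes with the largest rises had varied known roles. They are the 10 called genes with the largest log2 fold change among those with a mean of at least 50 normalised counts with ribociclib and no overlap between groups. PLOD2 (ENSG00000152952, chromosome 3 from 146035139 to 146163725, minus strand), a lysyl hydroxylase that prepares collagen for cross-linking, lay at 2.08, 24.1 and 13.3 normalised counts with vehicle and 238, 195 and 290 with ribociclib. NDUFA4L2 (chromosome 12 from 57234903 to 57240715), a mitochondrial protein known as a target of hypoxia-inducible factor, lay at 41.1, 113 and 70.3 against 1243, 637 and 1298. Their log2 fold changes were 4.53 (SE 0.73, adjusted p = 1.03e-04) and 3.85 (SE 0.69, adjusted p = 2.73e-04), and both were spread among the vehicle libraries, with the groups far apart.

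OR51E1 (chromosome 11 from 4643420 to 4655488), an olfactory-type receptor found in prostate, had 35.1, 28.5 and 20.3 normalised counts with vehicle and 243, 208 and 291 with ribociclib, a log2 fold change of 3.12 (SE 0.23). The relaxin genes RLN1 and RLN2, neighbours on chromosome 9 that encode insulin-like peptide hormones, rose with little spread, RLN1 from 222, 202 and 265 to 1100, 1046 and 1126 and RLN2 from 40.4, 38.3 and 35.2 to 237, 214 and 213. Their log2 fold changes were 2.25 (SE 0.08) and 2.51 (SE 0.14), and as close paralogues they could share reads. CSRNP3, a nuclear protein of the cysteine-serine-rich family, rose from 12.4, 7.70 and 9.42 to 150, 60.2 and 120 (3.28, SE 0.36). The lactate transporter SLC16A3 (log2 fold change 2.68), the collagen gene COL12A1 (2.65), the epithelial sodium channel subunit SCNN1G (2.58) and the unnamed long non-coding gene ENSG00000223930 (2.28) completed the 10. SCNN1G lost its call when any of 3 libraries was left out, with an adjusted p of 0.0654 without ribociclib replicate 1, 0.0525 without ribociclib replicate 3 and 0.0802 without vehicle replicate 3.

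The 10 largest falls, chosen in the same way with the mean taken over vehicle, held 4 UGT2B genes for glucuronidation enzymes, 4 histone genes, UGT8 and IQGAP3. UGT8, which adds galactose to ceramide, had 222, 253 and 182 normalised counts with vehicle and 11.2, 25.5 and 16.1 with ribociclib (log2 fold change -3.62, SE 0.37). IQGAP3, a scaffold protein linked to proliferation, had 1339, 1379 and 1443 against 134, 127 and 179 (-3.25, SE 0.17). The UGT2B and histone genes are described with their groups.

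**Figure D1:**
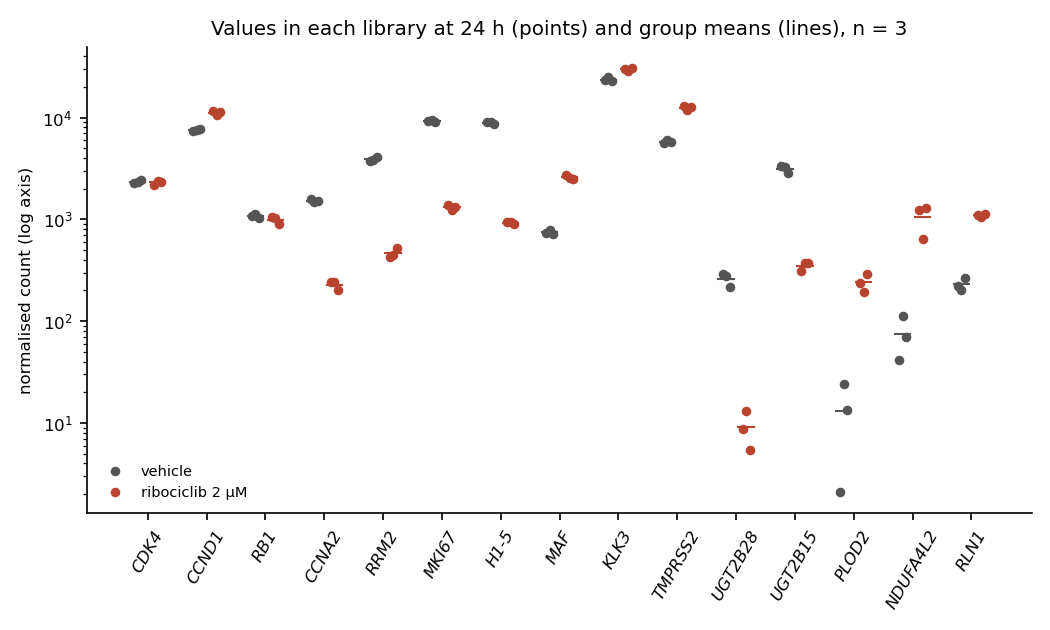
Normalised counts (log axis) of 15 genes in each of the 3 vehicle (grey) and 3 ribociclib (red) libraries of 24 h, with lines at the group means. CDK4 and RB1 overlap between groups, while CCNA2, RRM2, MKI67, H1-5 and the UGT2B genes sit lower and PLOD2, NDUFA4L2, RLN1 and TMPRSS2 higher with ribociclib in every library.

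Transcripts of the drug's targets CDK4 and CDK6 and of their substrate RB1 did not pass the test. CDK4 (chromosome 12 from 57747727 to 57756013) lay at 2267, 2328 and 2410 normalised counts with vehicle and 2199, 2387 and 2352 with ribociclib, and the log2 fold change of -0.01 (SE 0.06, adjusted p = 0.875) did not pass. RB1 was at 1078, 1119 and 1025 against 1046, 1029 and 908 (-0.11, adjusted p = 0.313). CDK6 was spread with vehicle, at 185, 31.0 and 122, against 43.8, 26.6 and 36.3, and did not pass (-1.33, SE 0.68, adjusted p = 0.147), although it did without vehicle replicate 2 (-2.08, adjusted p = 0.0257). Of the exons of CDK4, 44.3% overlap TSPAN31 on the opposite strand, and the strand setting of the counting is not given in the sources used here.

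Around these kinases, 6 of 14 tested members of the CDK4/6-RB list fell and 2 rose on the adjusted p. Over all genes tested, 15.2% were lower and 16.8% higher. CCND1, which encodes cyclin D1, rose from 7440, 7547 and 7791 to 11518, 10554 and 11452 (log2 fold change 0.56, SE 0.04), while CCND3, for cyclin D3, fell from 1066, 1056 and 1085 to 663, 677 and 637 (-0.70, SE 0.06). CCND2, for cyclin D2, reached at most 4.78 normalised counts in the 6 libraries and was not tested. CDKN2C, which encodes the CDK4/6 inhibitor p18, fell from 442, 438 and 370 to 61.5, 60.4 and 105 (-2.49, SE 0.21), and RBL1, for the RB relative p107, by 1.12 on the log2 scale. CDKN2A, for the inhibitor p16, fell by 0.63, with 15.3% of its exons opposite CDKN2B-AS1. CDKN1A, for the inhibitor p21, fell from 2400, 2515 and 2459 to 1458, 1424 and 1469 (-0.76, SE 0.09), and CDKN1B, for p27, did not pass (-0.08, adjusted p = 0.455).

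Of the E2F and DP factors, 6 of 10 fell and 1 rose, against 15.2% lower and 16.8% higher over all genes tested. The atypical repressors E2F8 (log2 fold change -2.82) and E2F7 (-2.65) and the activator E2F2 (-2.42) fell most. E2F8 went from 536, 516 and 474 normalised counts to 94.3, 64.0 and 59.3. E2F1, the best known activator, fell less, from 970, 984 and 1069 to 477, 449 and 487 (-1.09, SE 0.09). In each of these genes every ribociclib library lay below every vehicle library.

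All 18 members of the list of G1/S cyclins and regulators fell on the adjusted p, 12 of them by at least 2-fold, and their median log2 fold change was -1.44. Among all genes tested, 15.2% were lower on the adjusted p. CCNA2 (chromosome 4 from 121816444 to 121823883), which encodes cyclin A2 of S and G2 phase, fell from 1584, 1478 and 1505 normalised counts to 240, 245 and 202 (-2.73, SE 0.14, adjusted p = 5.64e-11). CCNE2, for cyclin E2, fell from 525, 722 and 682 to 102, 138 and 186 (-2.20, SE 0.25), with 37.1% of its exons opposite INTS8. MYBL2, for B-MYB, fell by 2.53 and FBXO5, for EMI1, an inhibitor of the anaphase-promoting complex, by 2.07 on the log2 scale.

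DNA replication genes followed, with 45 of 55 lower and 2 higher on the adjusted p, against 15.2% and 16.8% of all genes tested. Of the 55, 28 were lower by at least 2-fold, and the median was -1.01. Claspin (CLSPN), a mediator of the replication checkpoint, fell from 1555, 1530 and 1498 to 260, 205 and 257 (-2.67, SE 0.14). CDC45, part of the active helicase, and PRIM1, the catalytic primase subunit, fell by 2.21 and 2.20 and the fork protein DONSON by 1.92 on the log2 scale. Nucleotide supply moved less evenly, with 11 of 19 genes lower and a median of -0.38. The 3 higher genes were near the share among all genes. The exceptions in size were RRM2 (chromosome 2 from 10120698 to 10211725), the regulated subunit of ribonucleotide reductase, at 3728, 3797 and 4113 against 427, 446 and 523 (-3.06, SE 0.17), and TYMS, thymidylate synthase, at 1965, 1916 and 1884 against 309, 287 and 322 (-2.65, SE 0.09). Thymidine kinase 1 (TK1) fell by 1.80 and RRM1, the partner of RRM2, by 1.16. Of the exons of TYMS, 39.9% lie opposite ENOSF1.

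Replication-dependent histone genes showed the largest median change of any list examined. These genes are transcribed in S phase and their transcripts end in a stem-loop instead of a poly(A) tail, which a total RNA library can hold. Of 56 listed genes 47 could be tested, of which 44 fell, 40 by at least 2-fold, and 0 rose, with a median log2 fold change of -2.21. The share lower among all genes tested was 15.2%. The linker histone gene H1-5 (chromosome 6 from 27866792 to 27867588) went from 9112, 8968 and 8635 to 934, 950 and 907 (-3.26, SE 0.12, adjusted p = 6.45e-13). H2BC14 went from 2949, 2712 and 2973 to 220, 256 and 267 (-3.54, SE 0.17), and H2BC17 from 2739, 2680 and 2701 to 362, 372 and 389 (-2.85, SE 0.11). H3C12 fell by 3.79 (SE 0.51), from 155, 120 and 141 to 10.02, 9.92 and 7.50, and 40.3% of its exons are shared with H2AC17 on the same strand.

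H4C14 had the most negative fold change of all genes, but its value depends on how reads were divided. Its sequence matches that of H4C15 at 100% identity over 1547 bases. H4C14 lay at 4717, 3860 and 5702 normalised counts with vehicle and 40.1, 6.44 and 884 with ribociclib, a log2 fold change of -6.18 (SE 2.31, adjusted p = 0.0487), and the call was lost under several other settings. H4C15 lay at 8487, 7176 and 5748 against 1699, 1933 and 1076 and did not pass by itself (-2.21, adjusted p = 0.259). The sums of the pair were steadier, at 13203, 11037 and 11449 with vehicle and 1740, 1940 and 1960 with ribociclib. The fall of the pair is therefore better read from the sum than from either gene.

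Mitotic genes fell too. Of 37 genes of mitotic entry and exit, 33 fell, 29 by at least 2-fold, and 0 rose, with a median of -1.69. Among all genes tested, 15.2% fell and 16.8% rose on the adjusted p. MKI67 (chromosome 10 from 128096659 to 128126423) fell from 9181, 9371 and 8954 to 1368, 1246 and 1321 (-2.81, SE 0.08, adjusted p = 5.01e-14). AURKB, the kinase of the chromosomal passenger complex, fell from 694, 778 and 711 to 67.6, 125 and 79.3 (-3.04, SE 0.19). ESPL1 fell by 2.56 and PLK1, a kinase needed through mitosis, fell by 2.5 on the log2 scale. FOXM1, the transcription factor of the late wave, fell from 3447, 3589 and 3289 to 833, 914 and 831 (-2.0, SE 0.08), with 15.9% of its exons opposite ITFG2. In none of these genes did the groups overlap.

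Of 52 genes for kinetochores, condensins and kinesins, 48 fell, 39 by at least 2-fold, and 1 rose, with a median of -1.62. Over all genes tested, the shares were 15.2% lower and 16.8% higher. The kinesins KIF20A (log2 fold change -2.88) and KIFC1 (-2.58), the kinetochore protein SPC25 (-2.56) and the condensin subunit NCAPG (-2.5) fell most, and 33.7% of the exons of NCAPG overlap LCORL on the opposite strand. Repair genes that act in S phase moved with them. Among 36 genes of homologous recombination and the Fanconi anaemia pathway, 29 fell, 17 by at least 2-fold, and 0 rose, with a median of -0.95. The nuclease EXO1 fell by 2.35, the strand-exchange partner MND1 by 2.34, FANCA by 1.98 and the checkpoint kinase CHEK1 by 1.95 on the log2 scale, and 19.6% of the exons of FANCA overlap ZNF276 on the opposite strand.

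Androgen-responsive genes moved the other way, by smaller amounts. Of 56 tested, 48 rose and 2 fell on the adjusted p, 7 rose by at least 2-fold, and the median log2 fold change was 0.43. Of all genes tested, 16.8% rose and 15.2% fell on the adjusted p. KLK3 (chromosome 19 from 50854915 to 50860764) went from 23132, 24802 and 22731 normalised counts to 29962, 28771 and 30541, which is 0.34 on the log2 scale (SE 0.05, adjusted p = 6.66e-05). TMPRSS2 (chromosome 21 from 41464300 to 41531116), a membrane serine protease, went from 5672, 6056 and 5691 to 13016, 11858 and 12640 (1.11, SE 0.07, adjusted p = 4.94e-10). The related kallikrein KLK2 rose by 0.63. None of the 3 overlapped between groups, and the rise of TMPRSS2 was the larger one.

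The largest rises in this list were in the transcription factor MAF, from 738, 795 and 711 to 2751, 2527 and 2509 (1.79, SE 0.06), in NDRG1, a stress-responsive gene that is also on the hypoxia list, from 1368, 1651 and 1271 to 5366, 3742 and 5255 (1.73, SE 0.27), in PLA2G2A, a secreted phospholipase (1.64), and in the BMP receptor BMPR1B (1.49).

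The labelled cell type was checked against markers. All 14 luminal markers of LNCaP were present above the floor, and 12 rose and 0 fell, where 16.8% of all genes tested rose. Their summed level was 143991 to 151321 normalised counts with vehicle and 196098 to 203718 with ribociclib. Of 16 neuroendocrine and basal markers, 7 were at or under the floor in all 6 libraries, and the sum was 1425 to 1695 with vehicle and 1262 to 1404 with ribociclib, mostly ITGA6 and ENO2. The integrin ITGA6 fell by 0.48, and KRT14, a basal keratin, rose from 21.3, 4.35 and 12.6 to 38.5, 32.5 and 42.5 (1.72, adjusted p = 0.00272). Of 16 stromal, endothelial and blood markers 10 were at or under the floor, and the sums overlapped, at 775 to 938 and 794 to 920. Among these, COL1A1 fell by 0.74, ACTA2 rose by 1.05 and COL3A1 rose by 1.22 (adjusted p = 0.0311), a call that other settings removed. The part of these markers in the other results was not tested.

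Genes of the UGT2B family of glucuronidation enzymes, some of which inactivate androgens, fell while most genes on the androgen-responsive list rose. UGT2B28 (chromosome 4 from 69280475 to 69295050) went from 290, 280 and 215 normalised counts to 8.73, 13.1 and 5.44 (log2 fold change -4.76, SE 0.35, adjusted p = 7.03e-09). UGT2B11 (chromosome 4 from 69199951 to 69214748) went from 1573, 1327 and 1230 to 79.0, 77.4 and 61.1 (-4.23, SE 0.15). UGT2B10 (chromosome 4 from 68815994 to 68832023) went from 277, 241 and 234 to 25.3, 21.7 and 12.2 (-3.66, SE 0.33). All 3 dropped at least 10-fold in the mean, with no overlap. UGT2B15 (chromosome 4 from 68646597 to 68670652), which acts on dihydrotestosterone, went from 3308, 3278 and 2881 to 311, 376 and 369 (-3.16, SE 0.09). The paralogue UGT2B17, named here after its values were seen because it shares 551 bases at 99.3% identity with UGT2B15, went from 3421, 3533 and 3334 to 869, 876 and 768 (-2.03, SE 0.07). UGT2B10 and UGT2B11 share 312 bases at 98.1% identity, so reads may be divided between members. Of the 13 tested genes on the list of steroid inactivation and UGT2B enzymes, these 5 fell by at least 2-fold and 2 others rose, with a median of -1.46. Over all genes tested, 3.66% fell by at least 2-fold and 16.8% were higher on the adjusted p.

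Genes known to respond to low oxygen rose in part. Of 38 tested hypoxia-inducible genes 20 rose and 1 fell on the adjusted p, 8 rose by at least 2-fold, and the median was 0.43. The count of 20 rested in part on single libraries and on the fit, since 11 rose without ribociclib replicate 3, 13 without vehicle replicate 3, and 14 either without vehicle replicate 1 or with no trend. The median stayed between 0.37 and 0.49 in all alternatives run. Besides PLOD2, NDUFA4L2 and NDRG1, the mitophagy receptors BNIP3 (log2 fold change 1.08) and BNIP3L (0.79) rose, BNIP3 from 2495, 3007 and 2676 to 5575, 5502 and 6180. The lysyl oxidase LOX (2.18) and the secreted glycoprotein STC1 (1.94) passed but lost their calls without single libraries, STC1 to an adjusted p of 0.141 without vehicle replicate 1, where vehicle had 6.94, 54.9 and 11.6 normalised counts, and LOX to 0.0816 without ribociclib replicate 3. HIF1A, which encodes the oxygen-regulated subunit of the factor, lay at 3214, 2981 and 3055 with vehicle and 3055, 3157 and 3118 with ribociclib (0.01, adjusted p = 0.901). Of 14 oxygen-sensing genes tested, 3 rose and 1 fell, so that their shares did not stand clear of the 16.8% higher and 15.2% lower among all genes. ELOB, a subunit of the VHL ligase complex, rose by 0.37, and the antisense gene HIF1A-AS3 by 3.37 from 0.689, 16.99 and 0 to 23.3, 38.3 and 34.3. The prolyl hydroxylase EGLN2 fell by 0.27 and CITED2 rose by 0.23, and these 2 did not pass the adjusted p in some settings. Part of HIF1A-AS3 lies opposite the exons of HIF1A.

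Small, even rises marked the genes of cytosolic ribosomes. All 78 ribosomal protein genes rose on the adjusted p, by 0.20 to 0.61 on the log2 scale, none of them 2-fold, with a median of 0.37. Of all genes tested, 16.8% were higher and 15.2% lower. RPL13A went from 37357, 39045 and 37393 to 57470, 58033 and 58503 (0.61, SE 0.04), and RPL13, RPL31 and RPL23 rose by 0.57, 0.55 and 0.53. With quantile normalisation in place of the authors' scaling, 62 rose and 0 fell, with a median of 0.22. Genes of ribosome biogenesis did not move with them: of 47, 14 fell and 3 rose, with a median of -0.07. The nucleolar protein NOP56 fell by 0.49, POLR1G of RNA polymerase I by 0.44 and the small nucleolar RNA binding protein GAR1 by 0.39, while NOP10 rose by 0.34. Of the exons of POLR1G, 49.8% lie opposite ERCC1.

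Nuclear genes of oxidative phosphorylation also rose by small amounts, 47 of 76 with 1 lower and a median of 0.20. These counts and those that follow stand beside 16.8% higher and 15.2% lower over all genes tested. The complex I genes NDUFA2 (0.43), NDUFC2 (0.39) and NDUFB11 (0.34) and UQCR11 of complex III (0.36) led them. Of the 13 subunits encoded by mitochondrial DNA, 6 rose and 1 fell, MT-CO1 by 0.31 and MT-CO2 by 0.26, but this direction depended on scaling, since quantile normalisation gave 0 higher and 5 lower with a median of -0.05. Genes of cholesterol synthesis and uptake rose in 16 of 26 cases with 1 lower and a median of 0.26, among them the sterol transporter STARD4 (0.74), the reductase TM7SF2 (0.66), squalene synthase FDFT1 (0.62) and HMGCS1 (0.56). Of 41 lysosome and autophagy genes 17 rose and 3 fell, with GABARAPL1 (0.64), the sialidase NEU1 (0.53), MAP1LC3B (0.51) and the cholesterol exporter NPC2 (0.47) among the risers.

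Stress programmes did not move 1 way, and their counts stand beside 16.8% higher and 15.2% lower over all genes tested. Of 31 p53 target genes 12 fell and 6 rose, with a median of -0.05 that became positive (0.02) under quantile normalisation. BTG1, an antiproliferative factor, and SESN1, a stress-induced regulator of growth signalling, rose, SESN1 from 1250, 1166 and 1133 to 2683, 2680 and 2569 (1.16, SE 0.06) and BTG1 by 1.17. The DNA damage sensor DDB2 fell by 1.19 and PLK3 by 0.80. Of 34 genes of ER stress and the ATF4 response 13 fell and 10 rose. The amino acid transporter SLC7A5 fell from 681, 712 and 628 to 221, 213 and 238 (-1.58, SE 0.09), the glutathione-degrading enzyme CHAC1 by 1.19 and the cystine transporter SLC7A11 by 0.93, while the chaperone DNAJB9 rose by 0.83.

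Interferon and antigen presentation genes were mixed as well, with 9 of 34 higher and 2 lower. Over all genes tested the shares were 16.8% and 15.2%. HLA-B rose by 0.61 and ISG20 by 0.60, the latter not past the adjusted p in some settings. The antiviral sensor OAS3 fell from 679, 657 and 605 to 186, 202 and 144 (-1.87, SE 0.16) and IRF9 by 0.81. Of 10 senescence and secretory genes tested, 5 fell and 1 rose. HMGB2, a chromatin protein of proliferating cells, fell by 2.69, and lamin B1 (LMNB1) fell from 4585, 4594 and 4438 to 1383, 1592 and 1509 (-1.60, SE 0.07). CDKN1A and CDKN2A, which are usually listed as markers that rise in senescence, fell as given above. LMNB1 and HMGB2 are usually listed as markers that fall in it, so a count of falls gives no direction.

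In the BCL2 family 6 of 16 genes rose and 3 fell, against 16.8% higher and 15.2% lower over all genes tested. The antiapoptotic gene BCL2 fell from 239, 317 and 153 normalised counts to 63.2, 69.6 and 64.4 (-1.77, SE 0.32), and PMAIP1, for the death-promoting protein NOXA, fell by 0.73. Of 27 genes of PI3K and receptor kinase signalling 10 rose and 1 fell. IGF1R, the receptor for insulin-like growth factors, rose from 2238, 1498 and 2129 to 3739, 4304 and 4468 (1.11, SE 0.13), and the kinase regulator PIK3IP1 (0.97) and the adaptors IRS2 (0.92) and IRS1 (0.89) rose as well.

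Among 11 genes of ID and BMP signalling 6 rose and 2 fell, against 16.8% higher and 15.2% lower over all genes tested. BMPR1B and BMPR2 (0.66) were higher and ACVR1 lower (-0.63), and SMAD7 was higher (0.41) but did not pass the adjusted p in some settings. Of 24 immediate early genes 2 rose and 2 fell, smaller shares than the 16.8% and 15.2% among all genes. The phosphatase gene DUSP4 fell by 0.85 and IER5 by 0.55, and FOSL2 rose by 0.38 and SRF by 0.20. IER5, FOSL2 and SRF did not pass the adjusted p in some settings. Of 11 genes of the network of MAX, MLX and their partners 3 rose and 1 fell, too few to set against those shares. The repressor MXD3 fell by 2.35 and its relatives MXD4 and MXD1 rose by 0.66 and 0.53. MLX, with 18.2% of its exons opposite PSMC3IP, rose by 0.15, which did not pass the adjusted p in some settings. MXD3 shares 19.5% of its exons with RAB24 and 24.2% with PRELID1 on the opposite strand. Of 15 genes of xenobiotic response and drug transport, 1 passed, ABCC1, an efflux pump, which rose by 0.24.

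At the matched dose of 2 µM and time of 24 h, ribociclib was compared directly with the agents described as selective for CDK4. Within its panel of prostate lines, the study detected CDK6 expression only in PC3 and, to a smaller degree, in DU145. It also found that atirmociclib inhibited CDK1, CDK2, CDK7 and CDK9 more strongly than AU2-94 did. Equal doses need not be equally potent, and the part of any of these kinases in the differences was not tested. Against AU2-94, a compound known by its code, 0 genes (0%) were higher and 2 (0.0124%) lower with ribociclib by the 2-fold rule, and on the adjusted p alone 3 (0.0186%) were higher and 3 (0.0186%) lower. At an unadjusted p under 0.05 there were 1083 higher and 949 lower genes. The 2 called genes were BDH2, a cytosolic dehydrogenase, with 45.9, 35.6 and 42.7 normalised counts with ribociclib and 98.7, 88.1 and 103 with AU2-94 (difference -1.21, adjusted p = 0.0366), and CHST15, a chondroitin sulfotransferase, with 45.9, 47.0 and 38.9 against 128, 113 and 150 (-1.54, adjusted p = 0.0387). Neither call held with the replicate number as a block (adjusted p = 0.0629 for both). FDFT1 was higher with ribociclib by 0.30 (adjusted p = 0.0366).

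For 81.1% of the genes tested, the 95% interval of the difference between ribociclib and AU2-94 lay within 2-fold in either direction, which bounds the difference gene by gene and does not show that the agents act alike. The hypoxia-inducible list had a median difference of -0.38 with 0 of its 38 genes past the adjusted p. PLOD2 lay at 636, 631 and 462 normalised counts with AU2-94, above all 3 ribociclib libraries, with a 95% interval of the log2 difference from -2.80 to 0.28. The interval for NDUFA4L2 ran from -2.77 to 0.12. For H1-5, at 996, 1140 and 1562 with AU2-94, it ran from -0.63 to -0.13, within 2-fold.

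Against atirmociclib, 61 genes (0.378%) were higher and 7 (0.0434%) lower with ribociclib, and on the adjusted p alone 453 (2.81%) and 296 (1.83%). Of the 6 named genes that were higher, 5 belong to S phase, with lower values under atirmociclib. H1-5 was at 934, 950 and 907 normalised counts with ribociclib and 188, 219 and 192 with atirmociclib (difference in log2 2.22, 95% interval 1.97 to 2.47). CCNE2 was at 102, 138 and 186 against 31.7, 26.8 and 22.8 (2.31, 1.80 to 2.83), and CLSPN at 260, 205 and 257 against 70.3, 55.8 and 53.5 (1.99, 1.70 to 2.28). The groups did not overlap in any of them. H2BC14 (1.88) and H2BC17 (1.86) were also higher with ribociclib, and so was CHST11, a chondroitin sulfotransferase (2.70), whose call was lost without any of 4 libraries, with an adjusted p of up to 0.0939.

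By list, 40 of 47 histone genes were higher with ribociclib than with atirmociclib on the adjusted p, with a median difference of 0.72, and so were 22 of 55 replication genes (0.35), 9 of 18 G1/S genes (0.47), 19 of 37 mitotic genes (0.44), 23 of 52 kinetochore and kinesin genes (0.42) and 12 of 36 repair genes (0.32). In these lists 1 gene, a mitotic one, was lower. In other lists, 9 of 56 androgen-responsive genes were higher and 1 lower, 0 of 78 ribosomal protein genes passed in either direction, and 5 of 47 ribosome biogenesis genes were lower. The named genes lower with ribociclib were ADCY7, an adenylate cyclase (-1.23), ENSG00000243176 (-1.06), ZNF578 (-1.02) and ENSG00000287737 (-1.01), each of which lost its call in some settings. Of the exons of ADCY7, 41.8% lie opposite BRD7. For 80.1% of genes the 95% interval lay within 2-fold.

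**Figure D2:**
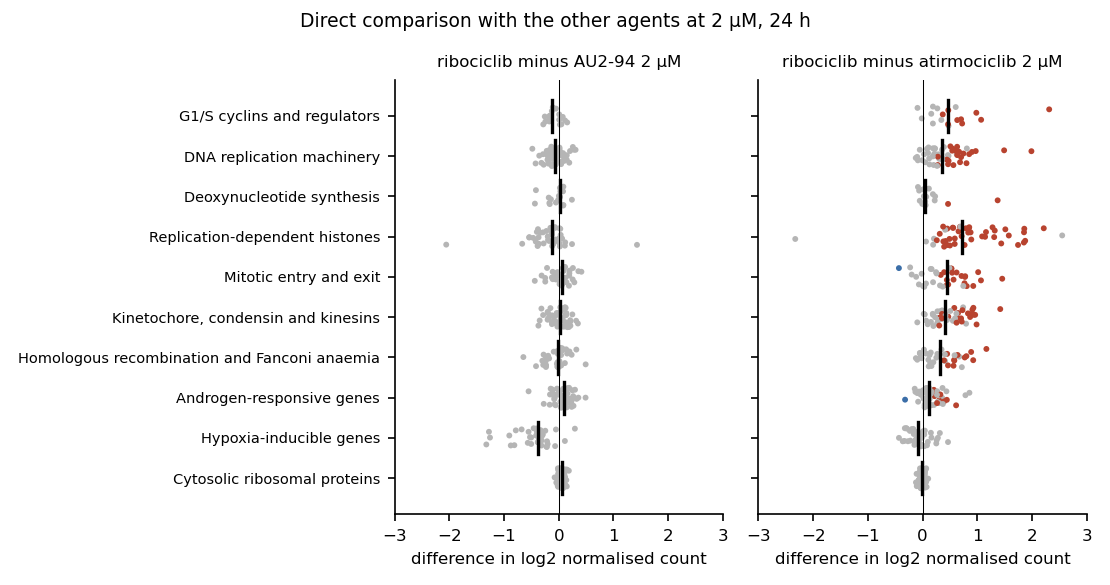
Difference in log2 normalised count between ribociclib and AU2-94 (left) and between ribociclib and atirmociclib (right), all at 2 µM and 24 h, for the tested members of 10 gene lists, with black bars at the medians. Red and blue mark members higher and lower with ribociclib at an adjusted p of at most 0.05. No points are coloured on the left, and on the right 40 of 47 histone genes are red.

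Whether the response to ribociclib lasted was asked with the libraries of 72 h, which had vehicle libraries of their own. At 72 h, 482 genes (2.95% of 16341 tested) were higher and 251 (1.54%) lower than vehicle, so that higher genes were then in excess. Of the 225 genes higher at 24 h, 78 were called higher again, which is 34.7% of the 24 h list and 16.2% of the 72 h list, and 0 were called lower. Of the 590 genes lower at 24 h, 140 were called lower again, 23.7% of the 24 h list and 55.8% of the 72 h list, and 4 were called higher. The median log2 fold change of the tested members went from 1.45 to 0.88 among the former and from -1.58 to -0.67 among the latter, and since the genes were chosen on the 24 h values a smaller median at 72 h can come from that choice alone. The 4 genes that turned, named here after their values were seen, were CERK (-1.75 at 24 h and 1.54 at 72 h), COL7A1 (-1.09 and 1.11), WDR97 (-1.08 and 1.12) and ENSG00000291262 (-1.77 and 1.22). COL7A1, a basement membrane collagen, had 161, 231 and 219 normalised counts with vehicle and 70.6, 138 and 84.5 with ribociclib at 24 h, and 137, 158 and 237 against 451, 367 and 315 at 72 h.

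The difference between the times was tested in 1 fit over all 36 libraries, as the change against vehicle at 72 h minus that at 24 h. It was positive by at least 2-fold in 596 of 16850 genes (3.54%) and negative in 85 (0.504%). Plating density differed with harvest time, and the 2 cannot be told apart. Cell cycle genes were among those whose fall was smaller at 72 h. MKI67 lay at 9672, 9199 and 9766 normalised counts with vehicle and 4663, 4319 and 4795 with ribociclib at 72 h, a log2 fold change of -1.06 in place of -2.81 (difference 1.75). H1-5 lay at 10804, 11190 and 11465 against 3694, 3778 and 3500, a change of -1.61 (difference 1.65), and RRM2 fell by 1.30 in place of 3.06 (difference 1.76). For UGT2B28, at 201, 241 and 190 against 54.3, 70.6 and 71.2, the change was -1.67 in place of -4.76 (difference 3.09).

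Other genes did not pass this test or changed more at 72 h. PLOD2 (5.42 at 72 h) and NDUFA4L2 (3.49) did not pass the test of the difference between times (0.89, adjusted p = 0.526, and -0.36, adjusted p = 0.816). OR51E1 stood further above vehicle at 72 h, by 5.27, with 4.79, 6.75 and 4.58 for vehicle and 244, 182 and 319 for ribociclib (difference 2.15). Its ribociclib values were near those of 24 h, and its vehicle values were lower than at 24 h. Both KLK3 and TMPRSS2 rose more at 72 h. KLK3 went from 20972, 20799 and 19802 to 47194, 48315 and 51463 at 72 h (1.25, difference 0.92). TMPRSS2 went from 5129, 4504 and 4205 to 15663, 14764 and 17923 (1.80, difference 0.70). The ribosomal protein genes named above were near vehicle at 72 h, with RPL13A at -0.03 (difference -0.64).

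Among genes with a mean of at least 50 normalised counts in the highest of the 4 groups, the largest positive differences with time, beside UGT2B28, were in SLC6A16 (3.61), a member of the neurotransmitter transporter family, the unconventional myosin MYO15A (3.43), PKD1L1 (3.36, lost in some settings) and MMP7, a matrix protease (3.19). MMP7 did not pass against vehicle at 24 h (0.05, adjusted p = 0.934) and at 72 h lay at 98.6, 81.6 and 157 normalised counts with ribociclib against 10.6, 11.2 and 9.93 with vehicle. The largest negative ones by the same limit were in ENSG00000290674 (-8.71), which shares 1589 bases at 99.9% identity with ENSG00000291060 and was at 47.0, 0 and 0 in vehicle at 24 h, FOS (-5.88), CSRNP3 (-2.36, lost with the replicate block, adjusted p = 0.0523), FRMD3 (-2.17) and the opioid receptor gene OPRK1 (-2.14). FOS, an immediate early transcription factor, was spread at 24 h, with 24.1, 7.02 and 15.1 against 62.4, 13.96 and 35.1 (1.13, adjusted p = 0.299), and at 72 h lay at 182, 289 and 235 with vehicle and 12.7, 12.5 and 2.48 with ribociclib (-4.75).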

How the data were processed

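Total RNA of LNCaP cells was extracted with TRIzol and made into libraries with the Universal Plus Total RNA-Seq kit with 12 cycles of amplification. The authors processed reads with nf-core/rnaseq, aligned them with STAR 2.6.1d (version as in the submitters' processing notes) to GRCh38 and used DESeq2, and deposited 1 table of 29872 genes by 36 libraries. The deposited values are a normalised signal, read counts per gene divided by a scaling that is not given in the sources used here, as are the read counter, annotation release and strand setting. Between 19.2% and 50.2% of low values per library (at most 20) were whole multiples of 1 step within 0.02 of a step, so reads were not recovered, the sequencing depth is unknown and no count test was run.

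After adding 1 and taking log2, values entered a linear model of group means in limma 3.58.1 (R 4.3.3, empirical Bayes with a trend, two-sided tests), with Benjamini-Hochberg adjustment over all genes tested. Genes with at least 10 normalised counts in at least 3 fitted libraries were tested: 16137 over the 18 libraries of 24 h, 16341 at 72 h and 16850 over all 36 libraries for the difference between times. All groups of a fit shared 1 estimate of the spread. A fold change on this scale understates the change of low genes. Group means are over 3 libraries, and SEs come from the shared empirical Bayes estimate of the spread.

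The labels give the replicate number as a batch, which pairs libraries of the same number across groups. Deviations from group means correlated by 0.0018 on average (-0.09 to 0.11) over 45 pairs of the same number at 24 h and by -0.0009 over 90 pairs of different numbers. The fit without the block is the one given, and the fit with the replicate number as a block was an alternative.

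Genes were named by rule: per direction the 10 largest changes against vehicle, 6 per comparison with another agent and 5 for the difference between times, with a mean of at least 50 normalised counts and, for the first 2, no overlap between groups, up to 4 members per list past the adjusted p, and a fixed set of CDK4/6, RB and androgen-responsive genes. Values of some genes and the list of lineage factors are not reported here. The genes and lists were chosen with earlier results of these data known, and the lists were written from general knowledge. No set test was run. Gene positions are from GENCODE 44 on GRCh38, exon overlaps from the same annotation (given where they reach 15% and the partner averages at least 20 normalised counts), near-identical stretches of at least 100 bases at 98% identity or more from BLAST 2.17.0, and promoter windows from RefSeq on GRCh38.p14, matched by symbol for 11516 of 16132 tested symbols. Scripts were tested on simulated data. Alternatives were pseudocounts of 0.5 and 8, other filters on low values, quantile and equal-total scaling, no trend, fits on the compared groups alone, the replicate block, and each library left out in turn.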

Additional observations from a re-analysis of the deposited data

Results flagged for a closer look

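The change against vehicle differed between 72 h and 24 h, by the interaction in the limma fit over all 36 libraries (adjusted p at most 0.05 and at least 2-fold), in 596 genes towards higher and 85 towards lower values. Plating density differed with time and cannot be told apart from it. Values below are the log2 fold change at 72 h minus that at 24 h for the named genes. Groups of 3 libraries are too small for a search for stray samples.

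The difference was positive for the replication and G1/S genes CCNA2 (1.67), CDC45 (1.35), CLSPN (1.65), MYBL2 (1.36), PRIM1 (1.32), RRM2 (1.76), TK1 (1.06) and TYMS (1.36) and for the factors E2F2 (1.23), E2F7 (1.19) and E2F8 (1.42). Among mitotic and kinetochore genes it was 2.06 for AURKB, 1.69 for ESPL1, 2.03 for KIF20A, 1.89 for KIFC1, 1.75 for MKI67, 1.55 for NCAPG, 1.67 for PLK1 and 1.57 for SPC25. The histone genes H1-5 (1.65), H2BC14 (1.93), H2BC17 (1.49) and H3C12 (1.85) and the repair genes CHEK1 (1.19), EXO1 (1.31), FANCA (1.38) and MND1 (1.43) were also positive.

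Positive differences were also found for the enzyme genes UGT2B10 (2.07), UGT2B11 (2.08), UGT2B15 (1.59), UGT2B28 (3.09) and UGT8 (2.34), and for ADCY7 (1.91), BDH2 (1.50), CHST15 (1.26), DUSP4 (1.17), HMGB2 (1.58), IQGAP3 (2.32), IRF9 (1.06) and MXD3 (1.33). All of these had fallen at 24 h. Of the rest, OR51E1 (2.15) had risen at 24 h, and MMP7 (3.19), MYO15A (3.43), PKD1L1 (3.36) and SLC6A16 (3.61) were named for this difference. It was negative for CHAC1 (-1.70), which fell further, and for CSRNP3 (-2.36), ENSG00000290674 (-8.71), FOS (-5.88), FRMD3 (-2.17) and OPRK1 (-2.14).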

How the results depend on the processing

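Requiring a mean of at least 100 normalised counts left 78 higher and 321 lower genes against vehicle, 0 lower against AU2-94, 37 higher and 0 lower against atirmociclib, and 322 positive and 29 negative differences between times, since fewer genes were tested. A pseudocount of 8 gave 147 genes higher against vehicle and 4 lower against atirmociclib, and quantile scaling gave 143 negative differences between times. Fits on the compared groups alone gave 39 higher and 4 lower genes against atirmociclib and 1 lower against AU2-94. The 2 genes lower than with AU2-94 became 0 with no filter, with quantile scaling, with no trend and with the replicate block. Leaving out 1 library at a time gave 0 to 2 higher and 0 to 2 lower genes against AU2-94, 54 to 61 and 1 to 9 against atirmociclib, 199 to 231 and 535 to 586 against vehicle, and 536 to 609 and 64 to 89 between times. The lowest count against atirmociclib was without ribociclib replicate 1.

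With the replicate block 224 genes were higher and 591 lower against vehicle, of which 220 and 577 were shared. Against atirmociclib there were 61 and 5. Among named genes the block ended the calls of H4C14 (adjusted p = 0.0645), BDH2, CHST15, CSRNP3 between times and ZNF578 against atirmociclib (0.0562), and no other.

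Of 2631 values of named genes under alternatives, 2502 kept direction and side of the threshold, 122 (24 genes) no longer passed, 1 newly passed and 6 turned. The threshold here was the adjusted p alone, without the 2-fold limit. ACTA2, which reached 0.908 with a library left out, thus counted as kept. MT-ATP6 gave -0.0626 and MT-CO1 0 under quantile scaling. CDK4 ranged from -0.0375 to 0.0214 and TXNRD1 from -0.0761 to 0.0808 with libraries left out, neither past the threshold. The cause of these changes was not tested. With 3 libraries per group and a median SE of 0.386 under 100 normalised counts, changes near 2-fold in scarce genes were not reliably detectable.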
